A study of Mus musculus with 4 samples.

Results

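The cells described here are early lymphoid-primed progenitors of mouse bone marrow, chosen by the transcripts of Flt3 and Dntt. A cell was a member if it had at least 1 unique molecular identifier (UMI, the tag of 1 captured transcript) of Flt3 and at least 2 of Dntt, none of Il7r, Cd79a, Siglech or Pf4, and at most 2 of Igll1 and Vpreb1 together. Of 41122 kept cells, 4328 met the rule, and they are called Dntt cells below. The study transplanted blood-forming cells of Srcap heterozygous mutant mice or of wild-type mice, both C57BL/6, into recipients together with competitor cells, and profiled the sorted donor stem and progenitor cells 20 weeks later by droplet 3′ single-cell RNA sequencing. The labels give 2 Srcap mutant and 2 wild-type samples, each from 20000 sorted donor cells in transplanted recipients. The deposited matrix pools 4 libraries marked by barcode suffixes 1 to 4, and no source used here ties a suffix to a genotype, so mutant and wild-type Dntt cells were not compared and the libraries are given one by one. Nothing in the labels says whether a library came from 1 recipient or from several.

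As background, multipotent progenitors that begin to favour the lymphoid fates carry the tyrosine kinase receptor Flt3 and switch on early lymphoid genes while they can still form myeloid cells. Dntt encodes terminal deoxynucleotidyl transferase, a polymerase that adds untemplated bases at the joints of rearranging antigen receptor genes, and its transcript appears in these progenitors before the Rag recombinase does its work. Il7r, the interleukin 7 receptor chain, and Ly6d mark the common lymphoid progenitors that come next, and Ebf1 starts the B-cell programme. Srcap encodes the ATPase of a chromatin remodeller that places the histone variant H2A.Z.

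Dntt (chr19:41029275-41059525, plus strand, mm10) and Flt3 (chr5:147330741-147400489, minus strand, mm10) chose the members, so their values are a description. The members had a median of 6 Dntt UMIs, with quartiles of 3 and 13 and a highest value of 83. Their median of Flt3 was 3 UMIs. Just inside the Dntt threshold lay 721 members with 2 UMIs, and just outside it 1546 cells with 1 UMI that otherwise met the rule. Of the 6499 kept cells with Flt3 and at least 2 Dntt UMIs, Il7r removed 1527, Cd79a 664, Pf4 663, Igll1 and Vpreb1 492, and Siglech 53, with overlaps. Some 2-UMI cells can come from free RNA. At least 2 Dntt UMIs were found in 1.04% of Flt3-negative cells with at least 3 Pf4 UMIs (megakaryocytic) and in 1.34% of those with at least 3 each of Elane and Prtn3 (granulocytic), which should lack the gene, against 37.5% of all kept cells with Flt3. Those cells were deeper than the members, with median UMI counts of 13455 and 22609.5, against 11834 in the members. The cells at the threshold were intermediate: median Satb1 was 152 CPM (UMIs per 1000000 UMIs summed over the cells of a library) at 2 Dntt UMIs and 108 CPM at 1, and median Notch1 was 46.2 CPM at 2 and 36.4 CPM at 1.

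Dntt cells made up 11.1% of the kept cells in library 1 (exact 95% interval 10.6 to 11.7), 11.9% in library 2 (11.2 to 12.5), 10.5% in library 3 (9.85 to 11.1) and 8.28% in library 4 (7.72 to 8.86). These are 1382, 1190, 1009 and 747 cells. Library 4 lay below the other 3, and the intervals of libraries 2 and 3 did not overlap either. The stem gate (Hlf and Procr, no Flt3, Dntt or Pf4) held 15.5% of the kept cells of library 4, the highest of the libraries, with a median of 9.86% over all 4. Intervals cover counting error only. Median UMIs per kept cell were close, from 9824 to 10226.5 in the 4 libraries. Among all kept barcodes 178 recurred in more than 1 library, 39 members shared their barcode with a kept cell of another library, and 2 barcodes were members in more than 1.

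**Figure D1:**
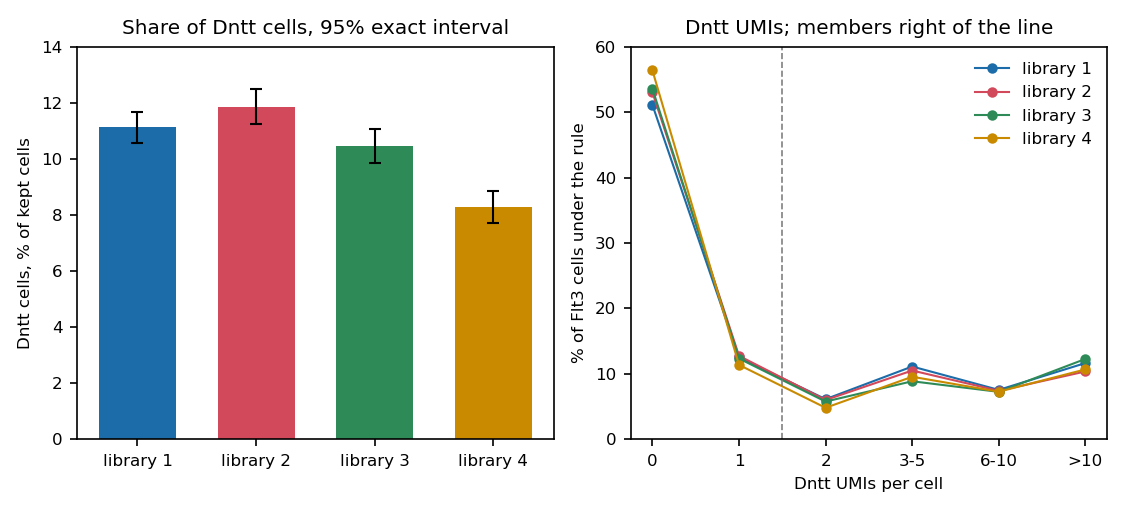
Left, Dntt cells as a percentage of kept cells in each library, with exact 95% intervals as error bars. Right, the percentage of cells meeting the rest of the rule at each number of Dntt UMIs per cell, with 1 line per library and the members right of the dashed line. Library 4 has the lowest share, 8.28%, and the largest part of its Flt3 cells at 0 Dntt UMIs.

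Genes outside the rule showed progenitor transcripts together with myeloid and stem ones. After each cell was thinned to 5000 UMIs, Cd34, a surface sialomucin of progenitors, was found in 87.6% of Dntt cells and Kit, the stem cell factor receptor, in 50.4% (medians over the 4 libraries; 97.9% and 75.7% before thinning). Cd3e, a T-cell receptor subunit, had a median share of 0%. The 8 granulocyte and monocyte markers summed to 738, 957, 1194 and 1112 CPM in libraries 1 to 4, against 1388 to 2162 CPM in Flt3 cells without Dntt and 724 to 1016 CPM in the stem gate. The 6 stem markers summed to 214 to 316 CPM, against 436 to 583 CPM in Flt3 cells without Dntt and 925 to 1113 CPM in the stem gate. The summed level of the 7 megakaryocyte and erythroid markers that the rule did not use was 34.7, 19.0, 277 and 20.8 CPM in libraries 1 to 4. In library 3 a single cell held 2563 of the 2617 Hbb-bs (beta-globin) UMIs of the members. The 5 macrophage markers summed to 4.22 to 8.19 CPM. The 8 T, NK and innate lymphoid markers summed to 258 to 298 CPM, of which Nkg7, a granule gene also read in myeloid progenitors, made nearly all. The 6 dendritic markers outside the rule, led by Bst2, summed to 169 to 202 CPM, with Cd209d at 0. In Flt3 cells without Dntt these 2 sums were 296 to 341 and 199 to 214 CPM. The 5 B lineage markers outside the rule summed to 38.1 to 41.8 CPM, against 28.4 to 30.9 CPM in Flt3 cells without Dntt. They summed to 29.6 to 35.2 CPM in the stem gate. In the granulocyte gate (defined below) they summed to 33.2 to 38.9 CPM, which overlaps the range of the Dntt cells. They reached 127 to 211 CPM in the Il7r Ly6d cells described below. The 5 mature B and plasma markers summed to 62.6 to 120 CPM, against 61.3 to 642 CPM in Flt3 cells without Dntt. What part free RNA has in them was not tested.

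The first comparison asks what accompanies Dntt among cells that meet the rest of the rule. It sets Dntt cells against 6683 Flt3 cells without any Dntt UMI, with UMIs summed over the cells of a library. Dntt cells had more of the transcripts of lymphoid regulators and less of those of stem cells. Since libraries are not replicates of a group, a gene was called by size alone, when (CPM + 1) differed by 1.5-fold or more and the same way in each of the 4 libraries. Of 9677 genes measured at a mean of 5 CPM or more, 84 were called higher in Dntt cells (0.868%) and 225 lower (2.33%), 309 in either direction (3.19%). The median log2 ratio over all genes was -0.04.

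Il12a ranked first among higher genes with at least 50 CPM in Dntt cells. It encodes the p35 subunit of interleukin 12 and lies at chr3:68690644-68698547. It had 154, 135, 153 and 142 CPM in the Dntt cells of libraries 1 to 4, against 34.1, 32.2, 33.4 and 31.9 CPM in the Flt3 cells without Dntt, a median log2 ratio of 2.13. The sets do not overlap, and each library gave nearly the same ratio. Since genes were ranked by the library with the smallest ratio, a high ratio in each library follows from that choice. Il12a was detected in 48.8% of thinned Dntt cells, against 14.6% of thinned Flt3 cells without Dntt (73.4% and 27.7% before thinning). It was read in 17.2% of the megakaryocyte gate, 10.1% of the stem gate and 8.96% of the granulocyte gate, so the share in Flt3 cells without Dntt is within the range of these gates.

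Notch1 encodes the receptor whose signal directs progenitors to the T lineage (chr2:26457903-26516663). It had 73.2, 88.1, 73.3 and 70.6 CPM in Dntt cells, against 23.5, 27.1, 21.4 and 23.3 CPM in Flt3 cells without Dntt, a median log2 ratio of 1.63. Satb1, a chromatin organiser that promotes lymphoid over stem cell fate (chr17:51736187-51833290), had 193, 234, 199 and 204 CPM in Dntt cells, against 67.2, 71.7, 61.1 and 59.0 CPM, a log2 ratio of 1.69. Library 2 was the highest of the 4 in Dntt cells for both genes and the highest in Flt3 cells without Dntt as well. At 5000 UMIs, Satb1 was found in 61.5% of Dntt cells, 24.2% of Flt3 cells without Dntt and 1.11% of megakaryocyte-gated cells (85%, 40.7% and 3.31% before thinning). Notch1 was found in 30.1%, 11.3% and 2.98% (54.8%, 21.6% and 7.94% before thinning).

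The list of early lymphoid genes had 24 measured genes, of which 7 were called higher and 0 lower, with a list median of 0.38 on the log2 scale. Beside Notch1 and Satb1 these were Mef2c, Ets1, Lax1, Ccr9 and Arpp21. Mef2c, a transcription factor that steers progenitors toward lymphoid fates, had a log2 ratio of 0.81. Ccr9, a chemokine receptor that guides progenitors to the thymus, had 14.4, 18.6, 24.6 and 22.6 CPM in Dntt cells, against 2.97, 2.76, 4.16 and 5.10 CPM. It was read in few cells, 6.53% of thinned Dntt cells and 1.39% of thinned Flt3 cells without Dntt. Arpp21, whose protein binds RNA and is abundant in early lymphocytes, had 36.1, 48.6, 42.1 and 38.6 CPM in Dntt cells, against 2.20, 3.82, 1.77 and 1.18 CPM. Its median log2 ratio was 3.75. Ikzf1, which encodes the lymphoid regulator Ikaros, was higher in each library by less than the threshold, with a median of 0.48.

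Among the other lymphoid lists, the calls lay mostly in T and innate lymphoid genes. Of 7 measured T and innate lymphoid genes, Lck, a kinase of T-cell receptor signalling, Ets1 and Nfil3, a factor of innate lymphoid development, were called higher, and Id2 lower. Lck had 30.7, 35.8, 30.5 and 28.8 CPM in Dntt cells, against 9.54, 10.3, 6.71 and 7.0 CPM in Flt3 cells without Dntt. Of 14 measured genes of V(D)J recombination and end joining, Xrcc6 was called. It encodes Ku70, which holds broken DNA ends for joining, and it had 75.6, 82.8, 76.4 and 73.2 CPM in Dntt cells, against 43.9, 46.2, 41.7 and 42.3 CPM. Its partner gene Xrcc5 (Ku80) had a median log2 ratio of -0.09. Of 5 measured genes of B lineage commitment 0 were called. One of them, Ighm, whose unrearranged locus is transcribed early, had 378, 280, 296 and 310 CPM in Dntt cells, against 190, 80.8, 213 and 88.0 CPM, with 1 library under the threshold. In 3 Dntt cells lay 2319 of its 18083 UMIs, and such a count was not made in Flt3 cells without Dntt. Ighm was read in 72.0% of thinned Dntt cells and 30.4% of thinned Flt3 cells without Dntt. With Kit and Cd34 required on both sides it was called higher, as 1 of 5 measured genes of this list. With at most 2 class II UMIs on both sides 0 of 5 were called.

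The remaining named higher genes were of mixed kind. Wfdc17, a small secreted protease inhibitor-like protein, had 200, 162, 213 and 233 CPM in Dntt cells, against 67.7, 53.3, 80.3 and 79.9 CPM, a log2 ratio of 1.54. The ratios were 1.31 for Cd69, a membrane protein that retains lymphocytes in tissue, 1.29 for Ncf1, a subunit of the phagocyte oxidase, and 1.20 for Smad7, an inhibitor of TGF-beta signalling. They were 1.08 for Ifi27l2a, an interferon-inducible gene, and 1.05 for both Ctr9, a subunit of the PAF1 transcription complex, and Il1r1, the interleukin 1 receptor. Pou2f2, which encodes the lymphoid octamer factor Oct2, had 1.01. Dhrs3, a retinal reductase, had 0.97, Egfl7, a secreted vascular factor, 0.87, and Bex6 0.84. The interferon-inducible Ifi27l2a was the 1 gene called of 25 measured in the interferon list, whose median was -0.08.

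Stem cell genes moved the other way. Of 22 measured, 0 were called higher and 11 lower, with a list median of -0.66. Gata2 had a log2 ratio of -1.18, Procr of -1.46 and Mecom of -0.74. All 3 are genes by which stem cells are recognised. Hlf, a stem cell transcription factor, was also called lower, with 163, 234, 161 and 210 CPM in Dntt cells, against 307, 425, 331 and 396 CPM in Flt3 cells without Dntt. Of 14 measured megakaryocyte and erythroid genes 5 were called lower (Itga2b, Zfpm1, Gata2, Apoe and Cd9) and 0 higher.

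The named genes that fell most were largely those of antigen-presenting cells. Cd74, which encodes the chaperone of MHC class II molecules, had 134, 163, 88.3 and 109 CPM in Dntt cells, against 1277, 1077, 944 and 1363 CPM in Flt3 cells without Dntt. The log2 ratios were -4.27 for Plbd1, a phospholipase B-like protein, -3.87 for Naaa, a lysosomal amidase, and -3.54 for Lgals3, galectin 3. They were -3.26 for H2-Eb1, -2.96 for H2-Aa and -2.49 for H2-Ab1, all class II chains. The share of cells differed much less than the sum for H2-Aa. It was read in 23.2% of thinned Dntt cells and 27.5% of thinned Flt3 cells without Dntt (40.0% and 38.6% before thinning). The log2 ratios were -3.14 for the chemokine receptor Ccr2, -2.43 for Id2, a factor of dendritic and innate lymphoid cells, -2.25 for Mpeg1, perforin 2, and -1.92 for Cst3, cystatin C. Of 9 measured class II genes 6 were called lower and 1, H2-Ob, higher. The rule removed cells with Siglech, a plasmacytoid dendritic gene, from both sides, and used no gene of conventional dendritic cells. What part dendritic cells have in these falls was not tested.

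When Kit and Cd34 were required on both sides, leaving 3269 Dntt cells and 5096 Flt3 cells without Dntt, 0 of 8 measured class II genes were called lower, and the list median was -0.40. Of 9 measured dendritic cell genes 0 were then lower. In this narrower comparison Cd74 had a median of 114 CPM in Dntt cells and 214 CPM in Flt3 cells without Dntt. Naaa and Plbd1 remained called lower with ratios closer to 0, -1.37 and -1.67, and Ccr2, Lgals3, Id2, Mpeg1 and Cst3 were no longer called. The log2 ratios were -1.70 for Gng11, a G protein subunit, -1.51 for Sdsl, a serine dehydratase-like enzyme, -1.49 for Apoe, apolipoprotein E, and -1.34 for Cd63, a tetraspanin, all still called. The higher genes kept their calls more often: 68 of the 84 were also called higher, while 128 of the 225 were also called lower. All 15 named higher genes were among those 68.

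**Figure D2:**
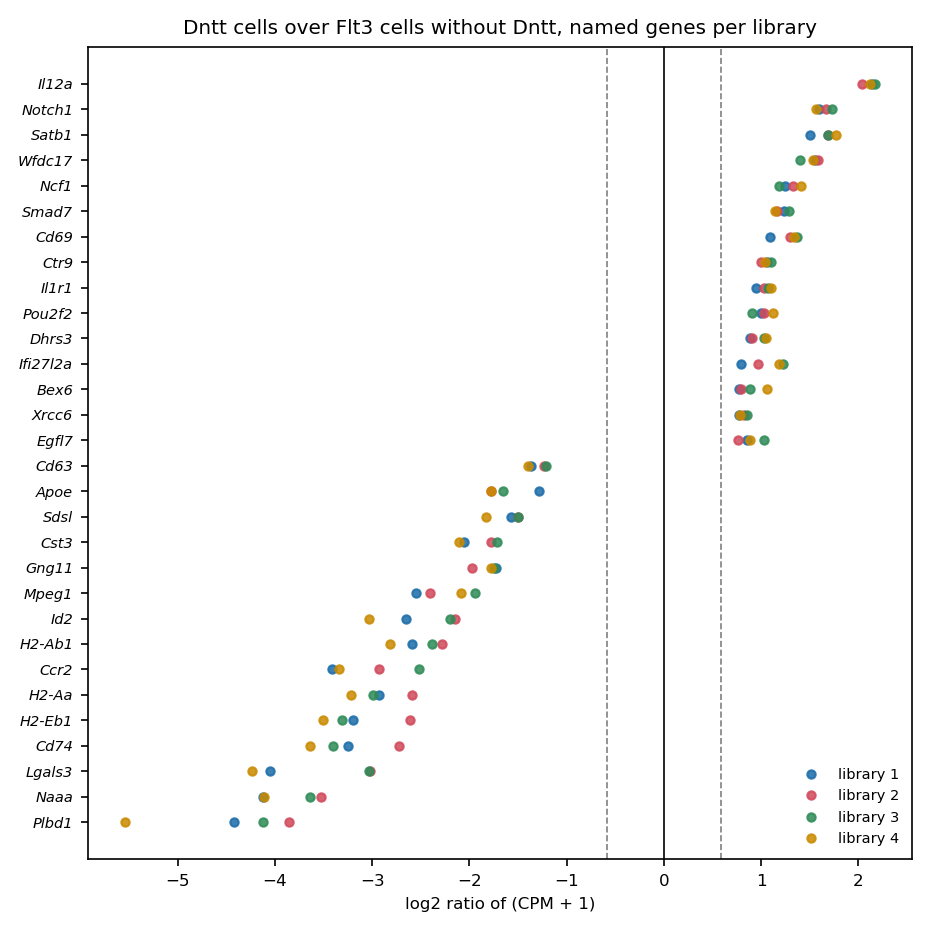
Log2 ratio of (CPM + 1), Dntt cells over Flt3 cells without Dntt, for the 15 highest and 15 lowest named genes, with 1 point per library. The solid line marks no difference and the dashed lines 1.5-fold. All points lie outside the dashed lines because the genes were chosen so, and Il12a has the highest median, 2.13.

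The second comparison sets Dntt cells against 279 Il7r Ly6d cells, which have Flt3, Il7r and Ly6d and stand for the next lymphoid stage. There were 60, 62, 101 and 56 of these cells in libraries 1 to 4, or 0.483% to 1.05% of kept cells. The gate did not use Dntt, yet all 279 had at least 2 Dntt UMIs. Dntt cells had less Rag1, Rag2 and Ebf1 transcript and more of several stem and myeloid ones. Of 9536 genes measured, 213 were called higher in Dntt cells (2.23%) and 228 lower (2.39%), 441 in either direction (4.62%). The median log2 ratio over all genes was 0.03. Because Dntt cells were chosen to lack Il7r, and Igll1 and Vpreb1 beyond 2 UMIs, those genes and Ly6d are no result here.

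Ebf1 had 2.33, 3.07, 2.43 and 2.17 CPM in Dntt cells, against 153, 90.4, 115 and 89.5 CPM in Il7r Ly6d cells, the largest fall of the named genes (log2 ratio -4.96). Rag1, the catalytic recombinase subunit, had 1.25, 1.92, 2.58 and 1.38 CPM in Dntt cells, against 80.8, 49.3, 61.3 and 31.7 CPM. Rag2, its partner, had 7.28, 6.34, 7.20 and 7.10 CPM, against 76.4, 57.5, 50.1 and 56.4 CPM. No library of Dntt cells came near the range of the later stage for these 3 genes. The further named genes fell by 3.61 on the log2 scale for Cox6a2, a cytochrome oxidase subunit, 3.07 for Cmah, a sialic acid hydroxylase, and 3.04 for Tmem108. Arpp21 fell by 2.85, Ly86 (MD-1, which pairs with the receptor RP105 on B cells) by 2.83 and Mpeg1 by 2.33.

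Of 28 measured early lymphoid genes 15 were called lower in Dntt cells than in Il7r Ly6d cells and 2 higher, with a list median of -0.70. Notch1 and Satb1 were among the lower ones, so that both stood between the neighbouring stages. The 2 higher were Ikzf2 (Helios), with 76.2, 92.8, 68.6 and 71.8 CPM in Dntt cells, against 23.1, 43.4, 10.5 and 20.6 CPM, and Ltb, the lymphotoxin beta chain. Xrcc6, Rag1 and Rag2 were the 3 genes called lower of 16 measured in the list of V(D)J recombination and end joining, whose median was -0.02. Mef2c, Tcf4 and Ikzf1 were not called, with log2 ratios of -0.51, -0.42 and -0.58.

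On the higher side, Hlf had 163, 234, 161 and 210 CPM in Dntt cells, against 30.3, 59.9, 22.4 and 16.5 CPM in Il7r Ly6d cells. Of 17 measured stem cell genes 7 were called higher and 0 lower, with a list median of 0.83. Kit was called higher too, with a log2 ratio of 1.12. Wfdc17, with 43.3, 30.5, 17.2 and 17.9 CPM in Il7r Ly6d cells, had a median log2 ratio of 2.96. The others were Ifitm1, an interferon-induced membrane protein, at 3.06, Ccl9, a chemokine, at 2.80, Rab38, a vesicle GTPase, and Myct1, both at 2.79, Stxbp4 at 2.14, Car2, carbonic anhydrase 2, at 2.05, and S100a6, a calcium-binding protein, at 1.85. Prtn3, proteinase 3 of neutrophil granules, had 349, 400, 445 and 440 CPM in Dntt cells, against 80.8, 59.9, 22.4 and 33.0 CPM.

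**Figure D3:**
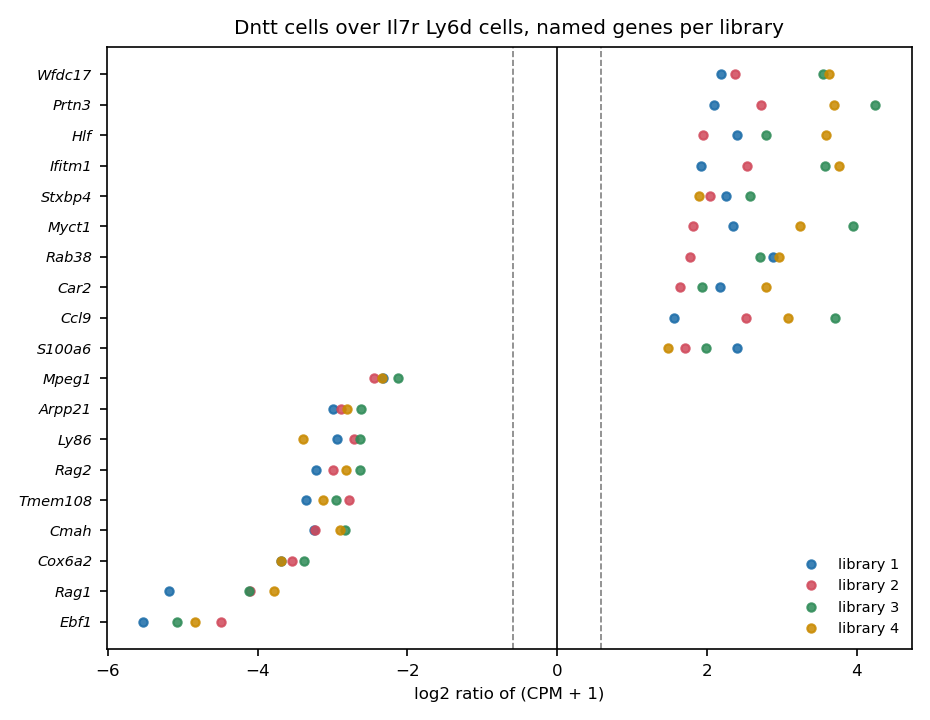
Log2 ratio of (CPM + 1), Dntt cells over Il7r Ly6d cells, for the 10 highest and 9 of the 10 lowest named genes, with 1 point per library. The dashed lines mark 1.5-fold. Ebf1 is lowest, at a median of -4.96, and the points of the higher genes are spread more widely between libraries than those of the lower ones.

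Set in the order stem gate, Flt3 cells without Dntt, Dntt cells, Il7r Ly6d cells and pro-B gate, the genes fell into a few shapes. A gene that a gate used is no result in that gate, so Hlf is not read in the stem gate. Median Satb1 was 18.3, 64.2, 201, 305 and 70.3 CPM over the 5 gates, and median Notch1 was 21.1, 23.4, 73.2, 192 and 33.1 CPM. Il12a had 20.6, 32.8, 148, 282 and 51.7 CPM. All 3 were highest in Il7r Ly6d cells and low again in the pro-B gate, in each library.

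Arpp21, Xrcc6 and Rag2 likewise were higher in Dntt cells than in the gates before and lower than in Il7r Ly6d cells. Median Arpp21 was 0.643, 1.99, 40.3, 285 and 133 CPM. Median Xrcc6, present from the stem gate on, was 36.3, 43.1, 76.0, 281 and 129 CPM. Median Rag2 was 0, 0.765, 7.15, 57 and 64.9 CPM. Ebf1 stayed at 0.586 to 2.38 CPM through the first 3 gates, then had 103 and 1560 CPM. Mecom, a stem cell transcription factor, took the opposite course, with 141, 62.7, 37.5, 10.0 and 7.55 CPM. Some genes peaked in the Dntt cells themselves. Median Cd34 was 221, 377, 440, 286 and 39.2 CPM, median Pou2f2 was 39.1, 56.8, 110, 89.1 and 42.2 CPM, and median Wfdc17 was 23.7, 73.8, 206, 24.2 and 6.45 CPM. For these 3 genes the Dntt cells were the highest of the 5 gates in every library.

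**Figure D4:**
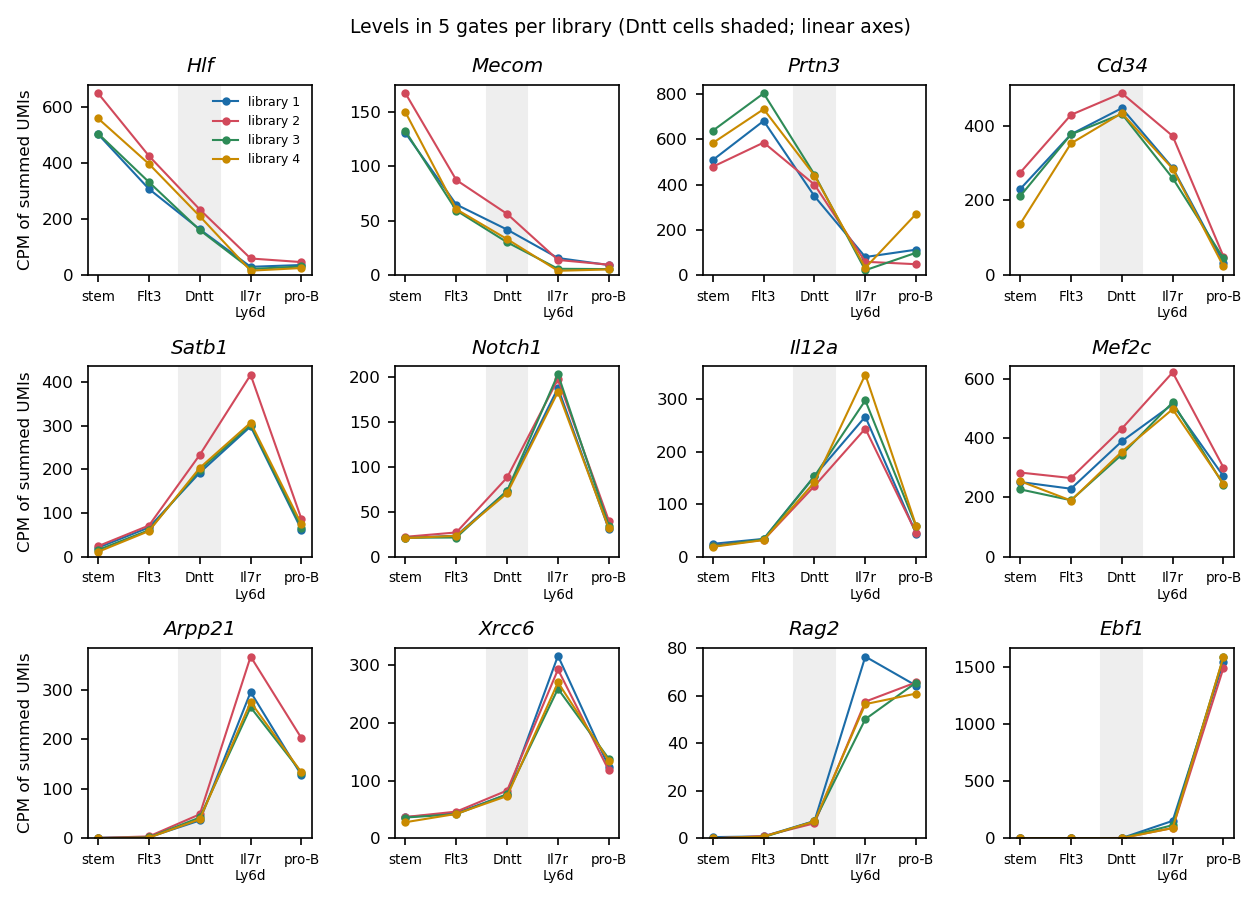
CPM of UMIs summed per library in 5 gates, from stem gate to pro-B gate, for 12 genes on linear axes, with 1 line per library and the Dntt cells shaded. Mecom declines along the order, Hlf (used to choose the stem gate) from the second gate to the fourth, Cd34 is highest in the Dntt cells, and Satb1, Notch1, Il12a, Arpp21 and Xrcc6 are highest in Il7r Ly6d cells.

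Granulocyte transcripts were present in Dntt cells at a low level in many cells. Median Prtn3 was 420 CPM in Dntt cells, against 708 CPM in Flt3 cells without Dntt, and 6219 CPM in the granulocyte gate, which used the gene. Mpo, myeloperoxidase, had 146, 177, 229 and 214 CPM in Dntt cells, against 335, 306, 451 and 408 CPM in Flt3 cells without Dntt, and was called lower. Of 27 measured granulocyte and monocyte genes 5 were called lower (Mpo, Ms4a3, Irf8, Fcer1g and Lgals3) and 1 higher (Clec12a). With Kit and Cd34 required on both sides Mpo alone was lower. With at most 2 class II UMIs on both sides, an alternative chosen after the data were seen, Irf8 turned to higher (log2 ratio 0.93) beside Clec12a, and 7 genes were lower (Mpo, Elane, Prtn3, Ctsg, Ms4a3, Ly6c2 and Hp). Against Il7r Ly6d cells 11 of 25 were called higher and 2 lower. Among the 11 were the transcription factors Cebpa and Cebpb, and the G-CSF receptor gene Csf3r.

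For some of these genes the share of cells and the sum ran in opposite directions. Mpo was read in 29.8% of thinned Dntt cells, 25.7% of thinned Flt3 cells without Dntt and 5.21% of the megakaryocyte gate (47.6%, 35.2% and 10.7% before thinning), although its CPM was lower in Dntt cells. Irf8, a factor of dendritic cells, monocytes and early lymphocytes, was read in 23.2% of Dntt cells and 14.8% of Flt3 cells without Dntt (38.5% and 19.8% before thinning), while its median CPM was 81.9 in Dntt cells and 177 in Flt3 cells without Dntt. No order is read from shares that go against the sums. Elane, neutrophil elastase, was read in 4.41% of thinned Dntt cells and 3.32% of the megakaryocyte gate (8.17% and 7.44% before thinning). Prtn3 was read in 66.3% of Dntt cells, 79.6% of Flt3 cells without Dntt and 44.1% of the megakaryocyte gate (81.3%, 88.9% and 70.8% before thinning), so part of its share can be background.

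A few cells carried most of some sums. Elane had 11.9, 110, 161 and 146 CPM in the Dntt cells of libraries 1 to 4, and 26 cells with at least 20 UMIs each held 5120 of its 5529 UMIs. Library 1 had 2 of those cells and the others 10, 6 and 8. S100a8 and Camp, both neutrophil genes, stood at 119 and 79.4 CPM in library 2, where 1 cell held 1232 of 1241 Camp UMIs. Whether such cells are doublets was not tested. By contrast 0 Dntt cells had 20 UMIs of Notch1, Satb1 or Il12a, whose highest values in a cell were 12, 15 and 16 UMIs.

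Dntt cells also differed among themselves along their own Dntt level. To compare cells at equal depth, the 4255 members with at least 5000 UMIs were thinned to that number (73 were shallower), and those with at least 2 Dntt UMIs left were divided into 743 cells with 2, 1114 with 3 to 5, 742 with 6 to 10 and 432 with over 10. The remaining 1224 had fewer than 2 after thinning. Cells with much Dntt had more of several early lymphoid transcripts and less of several stem cell ones. Between the cells with over 10 and those with 2, 106 of 9612 genes were called higher (1.1%) and 115 lower (1.2%). Before thinning the highest bin was the shallowest, with a median of 9001 UMIs, against 12075 in the lowest, and the part of depth in these results was not tested beyond the thinning.

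Arpp21 had a median log2 ratio of 2.55 between the highest and the lowest bin, resting on 322 and 93 UMIs. The ratios were 3.33 for Cox6a2, 3.18 for Cmah, 2.89 for Tmem108 and 2.62 for Rag2. They were 1.47 for Notch1, 1.43 for Ets1, 1.38 for Xrcc6, 1.16 for Il12a and 1.12 for Ighm. Satb1, at 0.72, was not called, since 1 library was below 1.5-fold, and Mef2c had 0.45. Of 28 measured early lymphoid genes 9 were called higher and 0 lower, with a list median of 0.59. With cells thinned to 3000 UMIs, where the highest bin held 120 cells and 18 in library 4, 4 of 29 were called higher (Ly6d, Rag2, Arpp21 and Myl10). Notch1, Ets1, Il12a, Ighm and Ifi27l2a were then not called, with log2 ratios of 1.55, 0.93, 0.49, 0.79 and 1.90. Ly6d was among the 9 with 120 UMIs in the highest bin and 4 in the lowest, and 7 cells held 255 of the 472 Ly6d UMIs of all members. This comparison and the one with Il7r Ly6d cells share the Dntt cells, so their calls are not independent.

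Hlf fell by 1.93 on the log2 scale between the ends, Cd63 by 1.95, Ifitm1 by 1.59, Prtn3 by 1.31 and Mecom by 1.25. Of 18 measured stem cell genes 4 were called lower, among them Hlf, Mecom and Procr, and 0 higher. Kit, at -0.50, and Cd34, at 0.06, were not called. The S phase list had a median of -0.47, with 1 of 30 genes called lower, and the G2 and M phase list -0.15, with 0 of 30 called. At 3000 UMIs these medians were -1.11 and -0.81, with 7 and 4 genes called lower. The share of cells with over 3 cycle UMIs differed little between the ends at 5000 UMIs. Its median was 84.2% in the highest bin (82.6% to 86.7% over libraries) and 89.5% in the lowest (83.5% to 91.2%). At 3000 UMIs it was 54.7% in the highest bin (47.5% to 83.3% over libraries), of 120 cells, and 78.0% in the lowest. Klf3, a transcription factor of B-cell subsets, had a log2 ratio of 1.27, Ttc13 1.35, Ifi27l2a 1.43 and Cnn3, a calponin, 1.68.

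**Figure D5:**
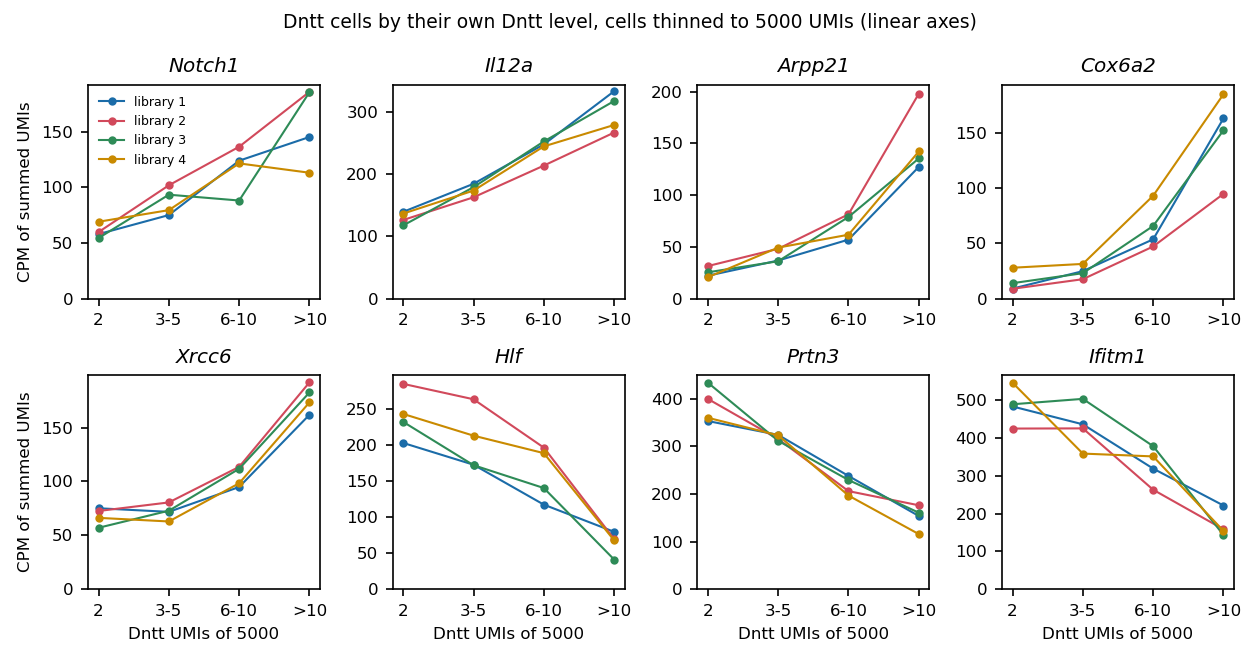
CPM of summed UMIs in Dntt cells thinned to 5000 UMIs, by their number of Dntt UMIs after thinning, for 8 genes on linear axes with 1 line per library. Arpp21, Cox6a2, Xrcc6, Il12a and Notch1 are higher at over 10 Dntt UMIs than at 2 in all 4 libraries, and Hlf, Prtn3 and Ifitm1 are lower.

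Counted per cell, at least 1 UMI of Ly6d, Rag1, Rag2 or Ebf1 was read in 3.01%, 5.37%, 10.2% and 20.7% of the cells of the 4 bins, in order of rising Dntt (medians over libraries). In the highest bin the libraries gave 13.2%, 23.8%, 19.7% and 21.7%, all above the range of 2.21% to 3.43% in the lowest bin. The background in the megakaryocyte gate was 0.93%. At least 1 UMI of the 6 listed stem cell markers, among them Hlf, Procr and Mecom, was read in 64.1%, 56.6%, 44.0% and 30.4%. The share was 78.4% in Flt3 cells without Dntt, 12.1% in Il7r Ly6d cells and 72.4% in the megakaryocyte gate, so these markers are not specific to stem cells. At least 1 UMI of Mpo or Ctsg, cathepsin G, was read in 41.6%, 42.7%, 42.7% and 41.4%, against 8.61% in the megakaryocyte gate. It was read in 32.8% of Flt3 cells without Dntt and 42.2% of Il7r Ly6d cells. For Mpo alone the shares were 29.8% in Dntt cells and 33.4% in Il7r Ly6d cells, and for Ctsg alone 29.6% and 17.6%. Ctsg was also among the genes called higher in Dntt cells than in Il7r Ly6d cells, so no order is read from the pooled share. After thinning to 3000 UMIs the shares of the 4 bins with Mpo or Ctsg were 34.6%, 33.6%, 30.8% and 29.4%. The share with at least 3 UMIs of Mpo, Elane, Prtn3 and Ctsg together was lower in each further bin, at 46.0%, 41.1%, 33.4% and 19.5% at 5000 UMIs. That share was 41.4% in all thinned Dntt cells and 12.5% in thinned Il7r Ly6d cells.

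Late lymphoid and myeloid transcripts were found in the same cells. Among thinned Dntt cells with Mpo or Ctsg, 6.31%, 6.43%, 7.44% and 8.12% in libraries 1 to 4 also had Ly6d, Rag1, Rag2 or Ebf1. Among those without Mpo or Ctsg the shares were 5.92%, 6.45%, 5.62% and 5.76%. The cells with both numbered 38, 32, 38 and 26, and what part doublets or free RNA have in them was not tested.

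Cell cycle transcripts were read in most Dntt cells. Mki67, a gene of cycling cells, was read in 42.3% of thinned Dntt cells and 34.1% of thinned Flt3 cells without Dntt (49.1% and 41.0% before thinning). Cells with at most 3 UMIs of the listed S, G2 and M phase genes after thinning made up 10.1%, 8.93%, 13.2% and 11.4% of Dntt cells in libraries 1 to 4, against 16.3%, 11.9%, 17.5% and 21.0% of Flt3 cells without Dntt. The share was lower in Dntt cells within each library, although the ranges over libraries overlap. In the stem gate it was 34.2%, 25.8%, 42.2% and 47.7%. The share depends on depth: at 3000 UMIs it was 22.2% of all Dntt cells, 31.2% of Flt3 cells without Dntt and 63.0% of the stem gate. None of the 30 measured S phase genes or the 30 G2 and M phase genes was called against Flt3 cells without Dntt, with list medians of 0.06 and 0.26.

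Srcap (chr7:127511983-127561219) had 57.2 CPM (exact 95% Poisson interval 53.7 to 60.8), 84.9 (80.4 to 89.6), 51.7 (47.9 to 55.7) and 54.3 CPM (49.8 to 59.0) in the Dntt cells of libraries 1 to 4. The Flt3 cells without Dntt had 60.5, 83.8, 55.9 and 58.4 CPM. Library 2 was highest in both, and the level does not say which genotype a library has. Of the 12 genes of the SRCAP complex and H2A.Z, 0 were called against either neighbour, with list medians of -0.01 and -0.03.

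Few genes set 1 library of Dntt cells apart from all the others. Of 3137 genes with at least 50 CPM in the highest library, libraries 1 to 4 stood at least 1.5-fold apart from the other 3 in 2, 6, 5 and 0 genes. A gene that differs between 2 libraries and the other 2 cannot be counted in this way. The counts therefore do not say how alike the libraries were. In library 3 these included the S-phase histone gene Hist1h2ap, with 488 CPM against 1260, 931 and 960 CPM in libraries 1, 2 and 4, and 3 further histone genes. In library 2 they included the long non-coding RNA Kcnq1ot1, with 538 CPM against 315, 314 and 335 CPM in libraries 1, 3 and 4. The remaining genes of that kind were mostly the neutrophil and globin genes held by few cells.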

How the data were processed

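The deposited matrix holds UMI counts per gene and cell barcode, which the authors made with Cell Ranger (version 6.1.2 per the file headers) on build mm10, per the submitters' processing notes. Any scaling of library depth at aggregation is not given in the sources used here. Cells were kept if they had 500 genes or more and no more than 10% of their UMIs from mitochondrial genes (41122 of 44151 barcodes), with median depths of 9824 to 10226.5 UMIs. Counts were summed per gate and library and scaled to CPM. Genes with a mean of at least 5 CPM over both sides were compared as log2 ratios with a pseudocount of 1 CPM, with no p-value, since suffixes could not be matched to samples and the planned test of mutant against wild type was not run. The size rule was tested on simulated data. Named genes were the 15 (Flt3 cells) or 10 (Il7r Ly6d cells) most changed by the library nearest to 0, with at least 50 CPM on the higher side, without rule, ribosomal, mitochondrial or unnamed genes, plus examples from the 15 gene lists; a few genes that met this rule or were called in a list are not reported here. In the Dntt bins the ranking was the same. Members and lists were chosen with earlier results of these data known. No doublet caller was used, and an alternative left out the 8% of cells with the most UMIs. Gates named beside the Dntt cells were the granulocyte gate (at least 3 UMIs each of Elane and Prtn3, no Dntt), the megakaryocyte gate (at least 3 of Pf4, no Flt3 or Dntt) and the pro-B gate (Cd79a, and at least 3 of Igll1 and Vpreb1). Gene positions come from the GENCODE annotation of the same build. Python 3.11.15, NumPy 2.4.6, SciPy 1.17.1, pandas 2.3.3 and Matplotlib 3.10.9 were used. Intervals cover counting error only.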

Additional observations from a re-analysis of the deposited data

How the results depend on the processing

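The share of kept cells, 10.8% as a median over libraries, was 8.98% with at least 3 Dntt UMIs and 14.6% with at least 1. It was 8.09% with at least 2 Flt3 UMIs, 7.81% with Kit and Cd34 and 7.38% among low-cycle cells. It was 7.01% with the gate applied after thinning and 6.95% with at most 2 class II UMIs, both alternatives added after the data were seen. Genes lower than in Flt3 cells without Dntt numbered 142 of 9651 measured with Kit and Cd34 required. In low-cycle cells the higher and lower counts were 194 and 407 against Flt3 cells and 553 and 118 against Il7r Ly6d cells, whose low-cycle cells numbered 4, 3, 17 and 6 in libraries 1 to 4. With a 20 CPM filter they were 37 and 86, and 94 and 131. Without a filter they were 156 and 469 against Flt3 cells, and 422 higher against Il7r Ly6d cells. The filter itself sets how many genes are measured. That number is not given here for the low-cycle and filter settings, so their counts cannot be read as shares. Thinned to 3000 UMIs, 235 of 9491 genes were lower in the highest Dntt bin. Of 540 list medians 26 lay at or across 0, and 3 of these had been at least 1.5-fold from it: 0.27 for dendritic genes with Kit and Cd34, and 0.48 and 0.21 for dendritic and class II genes with at most 2 class II UMIs. Leaving out 1 library at a time gave shares of 10.5% to 11.1%, 91 to 96 higher and 237 to 252 lower genes against Flt3 cells, and 254 to 292 higher and 258 to 280 lower against Il7r Ly6d cells. With 1 library left out a gene had to pass in fewer libraries, so the rule was looser and these counts are not like for like with the main ones. The causes of the other changes were not tested. No paired analysis was possible because, for mutant against wild type, the barcode suffixes carry no replicate number or genotype.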

Other observations

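Of 21 measured cytokine and chemokine receptor genes, Ccr9 and Notch1 were called higher against Flt3 cells without Dntt, with a list median of -0.09. Against Il7r Ly6d cells, Kit, Csf3r and Il6ra, the interleukin 6 receptor, were called higher, and Il6st, its signalling partner, Ccr7, a chemokine receptor of lymphocytes, and Notch1 lower, with a list median of 0.05. The difference between these sets of calls was not tested.

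Of 12 measured dendritic cell genes, 6 were called lower and 2 higher (Tcf4 and Ccr9) against Flt3 cells without Dntt, with a list median of -1.09. With at most 2 class II UMIs on both sides 3 of 9 were higher, Irf8 now among them, and 1 lower, with a median of 0.48. Tcf4, a factor of plasmacytoid dendritic cells and early lymphocytes, had 253, 297, 265 and 268 CPM in Dntt cells, against 152, 180, 160 and 163 CPM in Flt3 cells without Dntt. Against Il7r Ly6d cells Irf8 alone of 9 was called, lower. Of 16 measured immediate early and heat shock genes, Klf2 was called lower against Flt3 cells without Dntt. Against Il7r Ly6d cells, Ier3 and Dusp1 were called higher and Klf2 lower, of 14.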
